A study of Mus musculus with 12 samples.

Results

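The comparison set all cultures that received macrophage migration inhibitory factor (MIF) against all that did not, whether or not soluble CD74 (sCD74) was present. It used all 12 arrays of the series, 6 with MIF and 6 without. The cells were cardiac fibroblasts of wild-type C57BL/6J mice aged 1 to 7 days, kept for 10 to 14 days on the dish until they had become myofibroblasts. Cultures with MIF had received 8 nM MIF alone or 8 nM MIF together with 40 nM sCD74, and cultures without MIF had received 40 nM sCD74 alone or carrier, each for 8 h and with 3 arrays per group. In the titles the 4 arrays of a replicate number share a date code, so each of the 3 date codes holds every group. This gave 6 pairs of arrays, with and without MIF, that matched in date code and in sCD74. The labels do not say what the code dates or whether the arrays of a group came from separate cell isolations, so the p-values measure the spread between these arrays, which may be technical.

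MIF is a secreted cytokine that binds CD74, a membrane protein that signals with CD44, and the chemokine receptors Cxcr2, Cxcr4 and Ackr3. sCD74 is the shed outer part of the receptor. In immune and connective tissue cells, inflammatory cytokines commonly act through NF-kappaB, a transcription factor held in the cytoplasm by inhibitory IkappaB proteins. Its target genes encode chemokines, adhesion molecules and cytokines, and also IkappaB proteins and other regulators that end the signal. In the heart, myofibroblasts secrete collagen after injury and also attract leukocytes through chemokines.

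The average MIF effect was estimated with limma, a linear model with moderated variances, over 22206 probe sets with the date code as a block. It is given as a difference in log2 level, with MIF minus without, with the standard error of that fit. No probe set passed an adjusted p of 0.05 in either direction, which is 0% of those tested, and no list described here held a called member. At an unadjusted p below 0.05, limma counted 994 probe sets higher (4.48%) and 797 lower (3.59%). Together these were 1791 (8.07%), against 1110.3 that 5% of the tested probe sets would give. The groups did not overlap at 53 probe sets (0.239%), and at 27 of these (0.122%) the 6 arrays with MIF lay above. All 6 pairs differed upward at 606 probe sets (2.73%) and downward at 496 (2.23%). Among probe sets at or above the level of negative controls defined below, 4.93% were higher and 3.13% lower at that unadjusted p, and among those under it 3.86% and 4.2%.

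The largest average differences were upward. A log2 difference of at least 1, which is 2-fold on the scale of the deposited values, was found for 8 probe sets higher with MIF and 0 lower. Of these 8, 1 had no single gene symbol. Its difference of 2.23 was the largest of all, but its pairs ranged from -4.00 to 5.34 and 4 of 6 were higher. For MIF against carrier it differed by 4.76, and for sCD74 with MIF against sCD74 by -0.30. The other 7 belonged to Ccl2, Clec4e, Tgtp2, Ccl5, Sele, Acod1 and Tnf, which encode chemokines, a pattern receptor, an interferon-inducible GTPase, an adhesion molecule, an enzyme of activated macrophages and a cytokine. None of the 7 passed the adjusted threshold.

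The arrays were alike in overall signal. Array medians were 8.11 to 8.13 with MIF and 8.10 to 8.14 without. The negative control probe sets had array medians of 7.39 to 7.48 with MIF and 7.37 to 7.90 without, lower with MIF in 5 of 6 pairs by 0.16 on average (exact sign-flip test over 6 pairs, two-sided p = 0.125, where the smallest possible is 0.03125). Their mean over the 12 arrays, 7.53, is used as the negative level, and 9470 probe sets averaged below it. A positive difference was found at 52% of all probe sets, at 54.8% of those at or above the negative level and at 48.3% of those below it. The part of this shift in the results was not tested.

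The labelled cell type was checked against markers. All 14 fibroblast markers measured lay above the negative level, with gene means of 10.40 to 17.59 with MIF and 10.41 to 17.62 without. All 17 macrophage markers also lay above it, with gene means of 8.17 to 17.20 with MIF and 8.14 to 17.25 without. Lyz2, a lysozyme of myeloid cells, was at 16.93, 17.27 and 17.47 (lowest, median and highest array) with MIF and at 16.82, 17.30 and 17.55 without. Macrophage transcripts were thus detected beside fibroblast transcripts in both groups. Endothelial markers averaged 10.85, 9.40 and 9.85 at date codes 1, 2 and 3, and macrophage markers 12.47, 13.68 and 13.25, so the codes differed in these markers more than the MIF groups did. Cardiomyocyte markers averaged 8.98, 9.07 and 7.79 at date codes 1, 2 and 3. Of the 16 measured, 6 had means below the negative level in both groups. In bulk RNA, fewer cells of a type and less RNA per cell cannot be told apart.

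Promoter sequence is shown for 3 genes, picked by hand among those whose window held a match to the kappaB consensus. They are the NF-kappaB inhibitor gene Nfkbia, the transcription factor gene Irf1 and the chemokine gene Cxcl10. Each sequence is the 250 bases before the RefSeq gene start on build GRCm38.p6, and capitals mark matches to the kappaB consensus on either strand. The Nfkbia window is chr12:55492648-55492897 on the minus strand, the Irf1 window chr11:53769764-53770013 on the plus strand, and the Cxcl10 window chr5:92348890-92349139 on the minus strand.
Nfkbia: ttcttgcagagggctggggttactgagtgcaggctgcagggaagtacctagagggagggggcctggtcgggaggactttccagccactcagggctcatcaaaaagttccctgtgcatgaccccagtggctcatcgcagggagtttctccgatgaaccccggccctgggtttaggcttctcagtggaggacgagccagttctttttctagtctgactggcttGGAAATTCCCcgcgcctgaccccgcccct
Irf1: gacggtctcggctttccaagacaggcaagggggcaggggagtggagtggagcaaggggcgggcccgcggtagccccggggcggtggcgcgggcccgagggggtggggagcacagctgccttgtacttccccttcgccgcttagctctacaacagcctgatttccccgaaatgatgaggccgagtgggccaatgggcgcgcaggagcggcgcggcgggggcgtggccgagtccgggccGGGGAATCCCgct
Cxcl10: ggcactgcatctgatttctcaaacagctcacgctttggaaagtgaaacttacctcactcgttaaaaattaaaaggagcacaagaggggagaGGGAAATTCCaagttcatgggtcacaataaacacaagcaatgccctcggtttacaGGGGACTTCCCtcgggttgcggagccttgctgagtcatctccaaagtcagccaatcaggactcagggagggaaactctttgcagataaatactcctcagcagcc
The match in Nfkbia lay 29 to 20 bases before the gene start and that in Irf1 13 to 4 bases before it. Cxcl10 had matches at 159 to 150 and at 104 to 94 bases before its start. Of 27025 genes in the promoter table, 8.23% held such a match in this window, against 13 of 23 NF-kappaB list genes with a promoter (56.5%), 6 of 17 chemokine genes (35.3%) and 5 of 20 interferon-stimulated genes (25%). Of the 10 genes with the smallest p among those higher, 8 had a promoter and 2 held a match, and of the 10 among those lower, 9 had a promoter and 1 held a match. The interferon response motif GAAANNGAAA, on either strand, was found for 3.46% of all genes and for 13 of 20 interferon-stimulated genes (65%). The kappaB and interferon motifs overlapped in 0 windows of these genes. No match was recorded for Birc3, Tnf, Ccl2, Ccl7, Ccl5, Icam1 or Vcam1, whether for lack of a match or of a promoter. A match is a description of the letters and not a bound site.

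Most genes of NF-kappaB signalling lay higher with MIF, though none passed the adjusted threshold. Of 28 measured targets and feedback regulators, 26 had a positive difference, against 52% of all probe sets. An unadjusted p below 0.05 was reached upward by 18 and downward by 0, against 4.48% and 3.59% of all probe sets. In 6 of 6 pairs 17 were higher, against 2.73%. These shares of all probe sets also apply to the counts of every list below. Means in both groups lay below the negative level for 3 of the 28. The median difference of the list was 0.33, beside 0.01 over all probe sets, and its members ranged from -0.04 to 1.02. The list's mean at date codes 1, 2 and 3 was 0.10, 0.26 and 0.71 without sCD74 and 0.25, 0.31 and 0.47 with it. Without date code 3 the list median was 0.21.

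Birc3, a ubiquitin ligase of the TNF receptor complex that limits cell death, had the smallest adjusted p of all probe sets. Its level was 12.41, 13.13 and 13.23 (lowest, median and highest array) with MIF, against 11.94, 12.18 and 12.42 without. The groups overlapped only in that the lowest array with MIF lay just under the highest without. The average difference was 0.81 ± 0.10 with a 95% interval of 0.59 to 1.02, and limma's adjusted p was 0.0607. In the pairs without sCD74 the differences were 0.47, 0.82 and 1.14, and with sCD74 they were 0.72, 0.74 and 0.95. Birc3 passed an adjusted p of 0.05 in 7 of the alternative fits, given in the closing section. It did not pass in the others. There limma's adjusted p was, for example, 0.999 without the block, 0.255 with a random block and 0.759 without date code 3.

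NF-kappaB induces genes of its own inhibitors. Nfkbia, which encodes IkappaB alpha, was at 11.43, 12.07 and 12.34 with MIF and at 11.15, 11.46 and 11.53 without. Its groups overlapped through a single low array with MIF, and it was higher in 6 of 6 pairs by 0.61 ± 0.10 on average (limma's adjusted p = 0.334). Tnfaip3, which encodes the ubiquitin-editing inhibitor A20, averaged 10.77 with MIF and 10.11 without. Nfkbie, an IkappaB gene, differed by 0.67, and its pairs by 0.07 to 1.36. Its means of 7.35 with MIF and 6.68 without both lay below the negative level. Nfkbib, a further IkappaB gene, differed by 0.25, and Tnip1, whose product binds A20, by 0.33. Other members of the list differed little, with Nfkbiz at -0.04 and Cyld, a deubiquitinase, at -0.01.

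Among the subunits of NF-kappaB itself, Nfkb2 differed by 0.40, while Rel and Relb differed by 0.21 and 0.12. Bcl3, a nuclear IkappaB protein, differed by 0.35. Effector targets were alike in direction. Icam1, an adhesion molecule for leukocytes, averaged 11.32 with MIF and 10.84 without, and Vcam1, another adhesion molecule, was at 15.24, 15.56 and 15.78 with MIF and at 15.09, 15.20 and 15.44 without. Vcam1 was higher in 6 of 6 pairs, with overlapping groups. Sod2, a mitochondrial superoxide dismutase, differed by 0.48, and Ptgs2, the inducible prostaglandin synthase, by 0.35.

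Irf1, a transcription factor that NF-kappaB and interferon signals both induce, was at 10.76, 11.56 and 11.98 with MIF and at 10.30, 10.88 and 11.23 without. Its difference of 0.58 ± 0.12 was the same with and without sCD74 to 2 decimals (adjusted p = 0.416 by limma). The pair at date code 1 without sCD74 differed by only 0.01, and the other 5 pairs by 0.49 to 1.23.

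**Figure D1:**
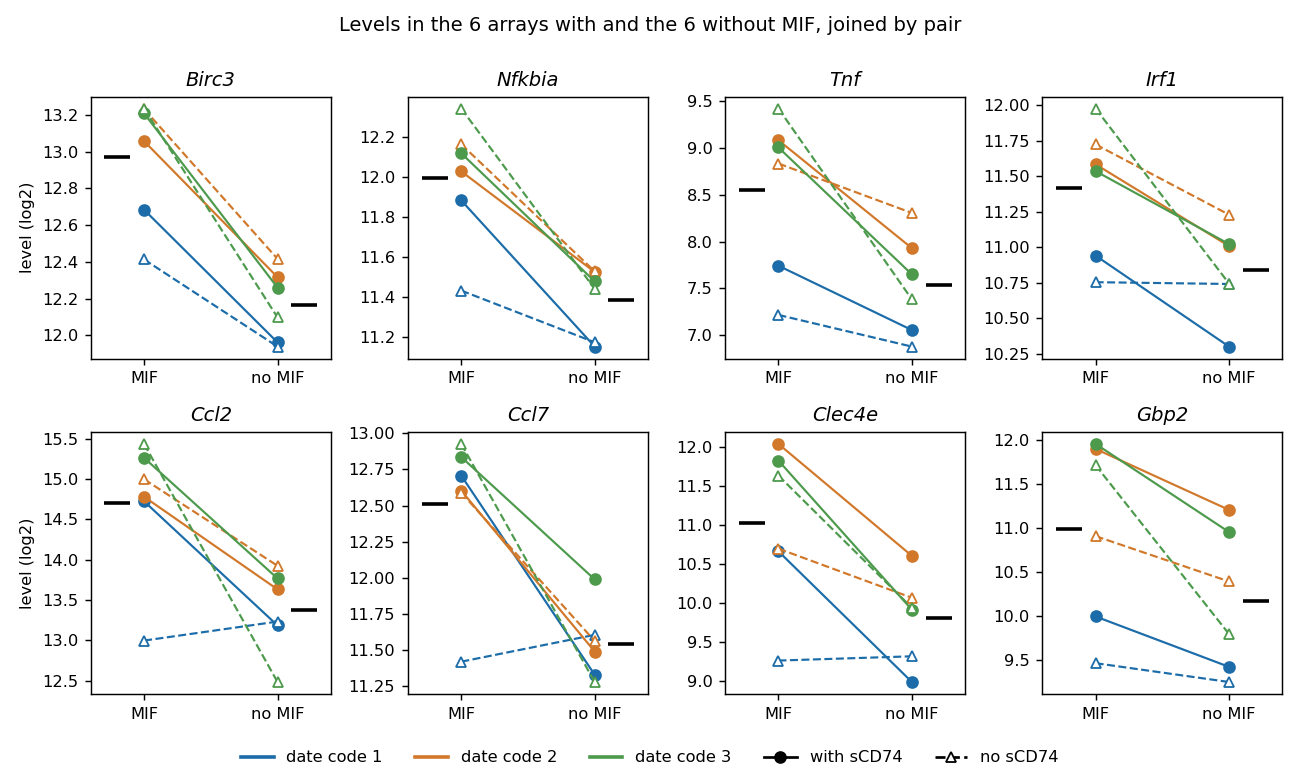
Log2 levels of 8 genes in the 6 arrays with MIF (left) and the 6 without (right), with lines joining arrays of the same date code and sCD74 level and short bars for group means. Most lines slope down toward the arrays without MIF, except the blue dashed line of date code 1 without sCD74, which is flat or inverted for Irf1, Ccl2, Ccl7 and Clec4e.

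Chemokines, the secreted proteins that attract leukocytes, were the other main group. Of 25 measured, 21 had a positive difference, and the median difference was 0.34. An unadjusted p below 0.05 was reached upward by 15 and downward by 0, against 4.48% and 3.59% of all probe sets. Means in both groups lay below the negative level for 6 of the 25. In 6 of 6 pairs 3 of the 25 were higher, a larger share than the 2.73% of all probe sets. The list mean was -0.00, 0.29 and 0.83 at date codes 1, 2 and 3 without sCD74 and 0.48, 0.31 and 0.47 with it, so the pair of MIF and carrier at date code 1 was the exception. Without date code 3 the list median was 0.22.

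Ccl2, which draws monocytes through the receptor Ccr2, was at 13.00, 14.89 and 15.43 with MIF and at 12.48, 13.43 and 13.92 without. The 5 other arrays with MIF lay above all arrays without it, and the lowest with MIF, replicate 1 of MIF alone, lay among them. The pair differences were -0.24, 1.07 and 2.95 without sCD74 and between 1.15 and 1.54 with it, with an average of 1.33 ± 0.31 (adjusted p = 0.421 by limma). Without that array the average was 1.65, the largest over omissions of single arrays, and without replicate 3 of carrier it was 1.02, the smallest.

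Ccl7, a related attractant encoded beside Ccl2, showed the same array pattern. Its levels were 11.42, 12.65 and 12.93 with MIF and 11.28, 11.53 and 11.99 without. It differed by 0.97 ± 0.19 and was higher in 5 of 6 pairs. When the array of MIF alone at date code 1 was left out, the difference was 1.18 and limma's adjusted p was 0.0224, against 0.416 with all arrays. This was the largest difference over omissions of single arrays. The smallest was 0.83, without replicate 3 of carrier, and limma's adjusted p rose to as much as 0.767. Ccl12, a further mouse ligand of Ccr2, averaged 12.61 with MIF and 11.88 without.

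Ccl5, a chemokine that attracts T cells and monocytes, was at 7.59, 8.97 and 10.54 with MIF and at 7.20, 7.91 and 8.94 without. It was higher in 6 of 6 pairs with wide overlap, by 0.16 to 2.70, and averaged 1.12 ± 0.24 (adjusted p = 0.416 by limma). Cx3cl1, a membrane-bound chemokine, was at 9.29, 9.58 and 9.79 with MIF and at 8.69, 9.24 and 9.44 without, also higher in 6 of 6 pairs. Its difference was 0.55 for MIF against carrier and 0.19 for sCD74 with MIF against sCD74.

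The neutrophil attractants Cxcl1 and Cxcl2 differed by 0.38 and 0.48, and Cxcl5 by 0.34. Cxcl13, an attractant of B cells, averaged 9.12 with MIF and 8.50 without. Cxcl12, a homeostatic chemokine of fibroblasts, differed by 0.03, Ccl11 by 0.06 and Ccl8 by -0.08.

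Of 17 cytokines and colony-stimulating factors, 14 had a positive difference. An unadjusted p below 0.05 was reached upward by 5 and downward by 0, against 4.48% and 3.59% of all probe sets. Means in both groups lay below the negative level for 7 of the 17. The median of the list was 0.11. The median was 0.17 without replicate 2 of sCD74 and 0.22 without date code 2. Tnf, the gene of tumour necrosis factor, was at 7.21, 8.92 and 9.42 with MIF and at 6.87, 7.51 and 8.31 without. It was higher in 6 of 6 pairs, by 0.34, 0.53 and 2.04 without sCD74 and by 0.69, 1.16 and 1.36 with it. Its mean without MIF lay at the negative level, so the average of 1.02 ± 0.19 starts from a level near background. Csf1, a growth factor of macrophages, was at 16.32, 16.56 and 16.63 with MIF and at 16.19, 16.24 and 16.43 without, with a small difference of 0.26 ± 0.09 in 6 of 6 pairs. The interleukin genes Il1b and Il1a differed by 0.65 and 0.50, Il6 by 0.17 and Il33 by 0.05. Csf2 and Csf3, which encode growth factors of granulocytes, differed by -0.01 and 0.05.

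**Figure D2:**
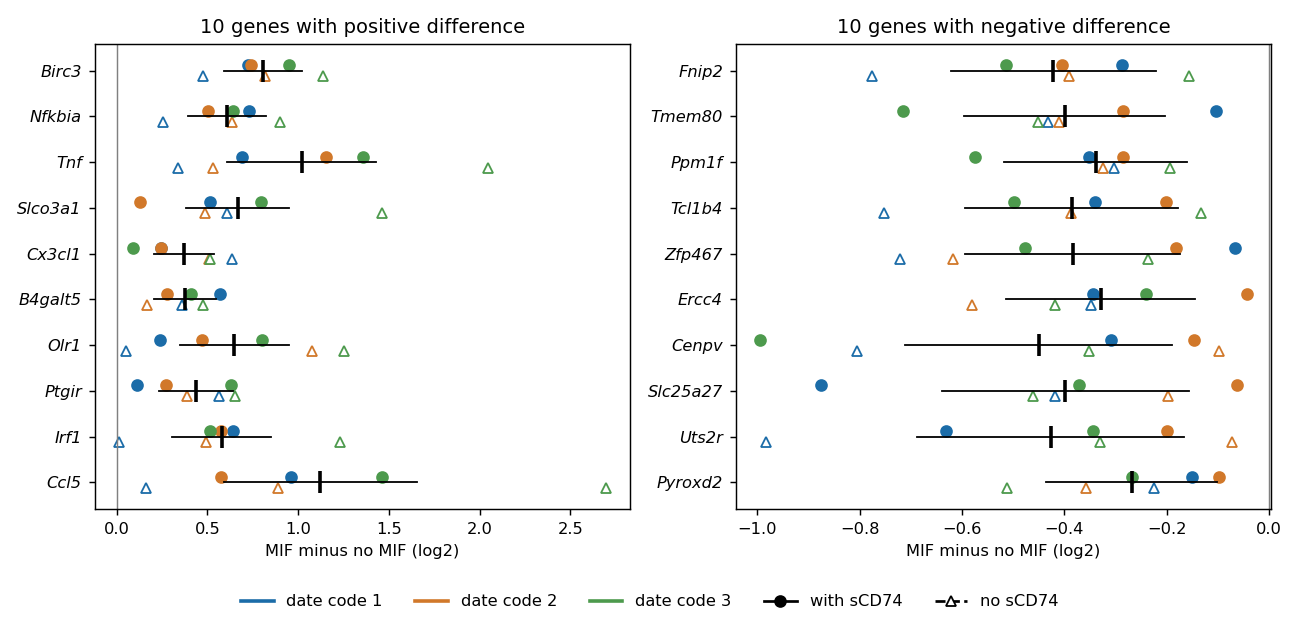
Pair differences in log2 level, with minus without MIF, for the named genes picked by small p, 10 higher and 10 lower, with bars for the average and its 95% interval. All 6 pairs of each gene fall on the same side of 0, as the rule required, and the spread between pairs is widest for Ccl5, Tnf and Slco3a1.

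Interferon-stimulated genes, which encode antiviral proteins and GTPases that attack intracellular microbes, were positive for 21 of 25 measured. An unadjusted p below 0.05 was reached by 10 upward and 0 downward, against 4.48% and 3.59% of all probe sets. In 6 of 6 pairs 6 were higher, against 2.73%, and the median difference was 0.29. Means in both groups lay below the negative level for 6 of the 25. Gbp2, a guanylate-binding protein, was at 9.46, 11.31 and 11.96 with MIF and at 9.25, 10.10 and 11.21 without, higher in 6 of 6 pairs by 0.82 ± 0.18 (adjusted p = 0.416 by limma). Cxcl10, a chemokine induced by interferons, was at 7.19, 8.66 and 9.96 with MIF and at 6.88, 7.23 and 8.72 without. Its pairs differed by 0.31, 2.00 and 1.75 without sCD74 and by 0.81, 1.24 and -0.15 with it, so its direction was not the same in every pair.

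The rest of the interferon list was uneven. Iigp1 and Igtp, both interferon-inducible GTPases, differed by 0.67 and 0.42, and the antiviral genes Oasl2, Isg15, Ifit3 and Ifit1 by 0.70, 0.45, 0.52 and 0.62. Mx2, Oas2 and Ifit2 differed by -0.05, -0.05 and -0.01, and Oas1a by -0.20. The list mean was 0.00, 0.38 and 0.73 at date codes 1, 2 and 3 without sCD74, and 0.33, 0.38 and 0.07 with it. The list median was 0.19 without replicate 2 of carrier and 0.20 without replicate 2 of sCD74 with MIF.

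Genes of antigen presentation were positive for 11 of 13 measured, with a median of 0.18. An unadjusted p below 0.05 was reached by 5 upward and 0 downward, against 4.48% and 3.59% of all probe sets. Means in both groups lay below the negative level for 3 of the 13. Tap1, a peptide transporter, was at 10.09, 10.85 and 11.33 with MIF and at 10.03, 10.40 and 11.04 without, overlapping widely although higher in 6 of 6 pairs. Psmb8, a subunit of the immunoproteasome, differed by 0.36. The class I gene H2-K1 differed by 0.28, a value that near-identical H2 genes can share. The class II gene H2-Aa lay below the negative level in both groups. B2m, the common light chain of class I molecules, differed by 0.07.

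Genes of myeloid activation, which are typical of stimulated macrophages, were positive for 12 of 12 measured with a median of 0.21. The median was 0.12 for MIF against carrier and 0.49 for sCD74 with MIF against sCD74. The average median was 0.14 without replicate 3 of sCD74, 0.07 without date code 3 and 0.44 without date code 2. Clec4e, a receptor for damaged cells and fungal lipids, was at 9.26, 11.17 and 12.04 with MIF and at 8.98, 9.93 and 10.61 without. Its pairs differed by -0.05, 0.63 and 1.70 without sCD74 and by 1.68, 1.44 and 1.92 with it, an average of 1.22 ± 0.20 (adjusted p = 0.334 by limma). Acod1, which makes itaconate in activated macrophages, was at 5.52, 7.37 and 7.98 with MIF and at 5.24, 5.79 and 7.23 without, so both means lay below the negative level. Tlr2, a receptor for bacterial lipoproteins, averaged 12.78 with MIF and 12.22 without, and Marco, a scavenger receptor, differed by 0.49.

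The macrophage markers themselves had a median difference of -0.01 over 17 genes, 8 of them positive and 0 at an unadjusted p below 0.05 in either direction. Their median was -0.19 for MIF against carrier, with 15 of 17 negative, and 0.15 for sCD74 with MIF against sCD74, with 13 of 17 positive. The list mean differed by -0.22, -0.25 and -0.07 in the pairs without sCD74 and by 0.22, 0.03 and 0.22 in those with it. The interaction of MIF and sCD74 reached an unadjusted p below 0.05 for 5 of these 17 genes, against 3.74% of all probe sets, and for 3 of the 12 myeloid activation genes. No probe set passed the adjusted threshold for that interaction. Adgre1, a surface marker of mature macrophages, was at 12.33, 13.42 and 13.86 with MIF and at 12.14, 13.54 and 14.07 without, and Mertk, a receptor for dying cells, was at 10.94, 11.47 and 12.04 with MIF and at 10.69, 11.69 and 12.25 without. The medians of the NF-kappaB list were 0.31 for MIF against carrier and 0.29 for sCD74 with MIF against sCD74. The part of the macrophage RNA in these results was not tested.

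**Figure D3:**
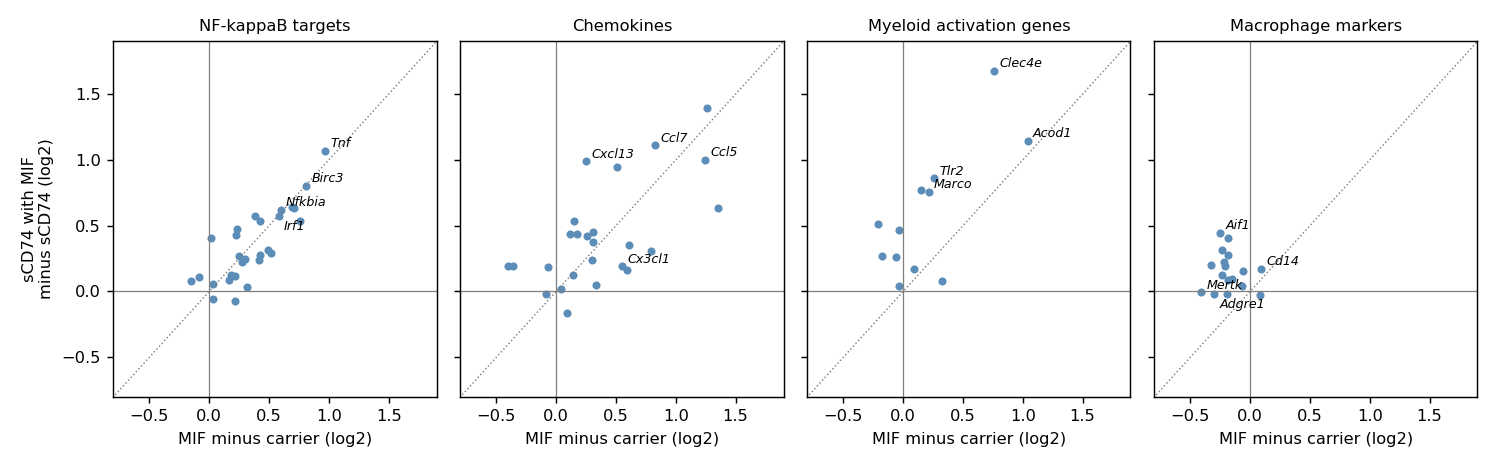
Log2 difference of MIF against carrier (x axis) and of sCD74 with MIF against sCD74 (y axis) for the members of 4 gene lists, where each point is a gene, the dotted line marks equal differences and the 4 genes with the smallest p are named. NF-kappaB targets and chemokines lie mostly above 0 on both axes, whereas 15 of 17 macrophage markers lie left of 0.

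Endothelial cells can also respond to inflammatory cytokines. Of 12 endothelial markers, 8 were positive, 0 reached an unadjusted p below 0.05, and the median was 0.03. Pecam1 and Cdh5, junction proteins of endothelium, differed by 0.04 and -0.06. Flt1, a receptor for vascular growth factors, was at 10.36, 10.80 and 11.38 with MIF and at 9.61, 10.55 and 11.26 without, and its 95% interval of -0.00 to 0.64 included 0.

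The 6 arrays with MIF did not overlap the 6 without for only a few named genes, so the pattern above rested on pairs rather than on separate groups. Slco3a1, an organic anion and prostaglandin transporter, was at 12.14, 12.37 and 12.59 with MIF and at 11.09, 11.72 and 12.08 without. All arrays with MIF lay above all arrays without, and the difference was 0.67 ± 0.13 (adjusted p = 0.416 by limma). Without sCD74 it was 0.85 and with sCD74 0.48.

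Besides Slco3a1, 3 of the 10 genes with the smallest p among those higher stood in no list. Olr1, the receptor for oxidised low-density lipoprotein, was at 10.67, 11.79 and 12.03 with MIF and at 10.01, 10.86 and 11.80 without. Ptgir, the prostacyclin receptor, was at 7.78, 8.04 and 8.17 with MIF and at 7.37, 7.56 and 7.89 without, close to the negative level. B4galt5, a galactosyltransferase of glycolipid synthesis, was at 13.12, 13.31 and 13.54 with MIF and at 12.55, 13.05 and 13.12 without. All 10 genes, these 3 among them, were higher in 6 of 6 pairs, as the rule that chose them required. The 3 differed by 0.65 ± 0.14, 0.44 ± 0.09 and 0.38 ± 0.08 in that order.

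Necroptosis is a lytic cell death that runs through Ripk3 and Mlkl. Of 16 genes of necroptosis and death receptors, 10 were positive, 4 reached an unadjusted p below 0.05 upward and 0 downward, and the median was 0.14. The 4 were Birc3, Ripk3, Mlkl and Tnfrsf1a. Ripk3, the kinase that phosphorylates Mlkl, was at 8.86, 8.91 and 9.14 with MIF and at 8.29, 8.58 and 8.90 without, higher in 6 of 6 pairs by 0.37 ± 0.10 (adjusted p = 0.479 by limma). Mlkl, the pore-forming effector, was at 12.06, 12.35 and 12.65 with MIF and at 11.91, 12.03 and 12.23 without, higher in 6 of 6 pairs by 0.33 ± 0.09. Both genes had overlapping groups. Casp8, the protease that blocks necroptosis, was at 15.49, 15.54 and 15.72 with MIF and at 15.41, 15.58 and 15.77 without, and Fadd differed by -0.06. Tnfrsf1a, the main TNF receptor, differed by 0.30, and Zbp1 by -0.04. Among 14 genes of apoptosis and survival, 10 were positive and 0 reached an unadjusted p below 0.05.

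Matrix and contractile genes define the myofibroblast. Of 22 extracellular matrix genes, 10 were positive, 1 reached an unadjusted p below 0.05 upward, and the median was -0.01. Col1a1, the main fibrillar collagen gene, was at 15.97, 16.09 and 16.38 with MIF and at 15.94, 16.04 and 16.30 without, with a difference of 0.08 and a 95% interval of -0.10 to 0.26. Col3a1 was at 17.46, 17.53 and 17.63 with MIF and at 17.39, 17.64 and 17.81 without. Eln, the elastin gene, differed by 0.29 ± 0.11 and was higher in 6 of 6 pairs, although its levels of 14.24, 15.84 and 16.22 with MIF and 13.77, 15.68 and 15.98 without overlapped almost fully. The list's median was 0.06 for MIF against carrier and -0.10 for sCD74 with MIF against sCD74.

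Acta2, the smooth muscle actin that marks myofibroblasts, was at 16.36, 16.53 and 16.97 with MIF and at 16.32, 16.48 and 16.98 without. Its difference of 0.07 had a 95% interval of -0.11 to 0.25. Of 15 contractile genes, 11 were positive, 2 reached an unadjusted p below 0.05 upward and 0 downward, and the median was 0.08. The 2 were Actg2, a smooth muscle actin whose means lay below the negative level, and Myh11, a smooth muscle myosin that differed by 0.21.

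Transforming growth factor beta is the main inducer of fibrosis. Of 19 genes of its response, 10 were positive, 1 reached an unadjusted p below 0.05, and the median was 0.00. For MIF against carrier 15 of 19 were positive with a median of 0.08, and for sCD74 with MIF against sCD74 7 of 19 were positive with a median of -0.05. That gene was Ltbp2, a matrix protein related to the binding proteins of the factor, at 8.43, 8.89 and 9.10 with MIF and at 7.88, 8.40 and 8.71 without. Its difference was 0.49 ± 0.12 in 5 of 6 pairs. Smad7 and Skil, 2 feedback inhibitors of the pathway, differed by -0.09 and -0.01, and Ccn2, a classical target, by 0.20.

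Of 18 matrix proteases and inhibitors, 14 were positive, 3 reached an unadjusted p below 0.05 upward, and the median was 0.07. Mmp13, a collagenase, was at 7.53, 7.74 and 7.99 with MIF and at 6.96, 7.37 and 7.68 without, higher in 6 of 6 pairs, with its mean without MIF below the negative level. Adamts4, an aggrecanase, was at 8.40, 9.30 and 9.49 with MIF and at 8.22, 8.80 and 9.01 without. The gelatinase Mmp2 and the stromelysin Mmp3 differed by 0.02 and -0.00.

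**Figure D4:**
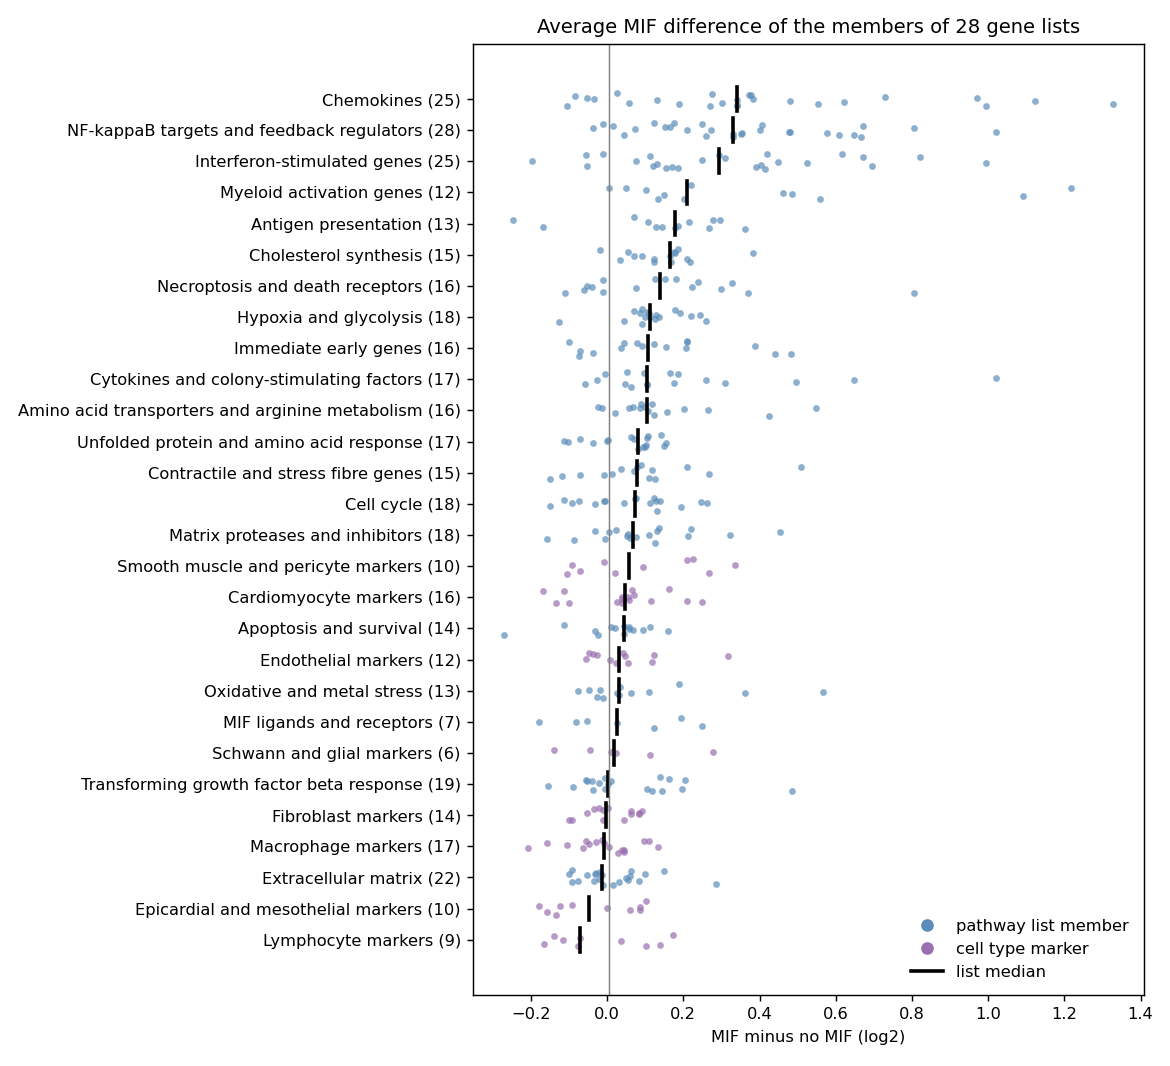
Average MIF difference in log2 level for each measured member of 28 gene lists, ordered by list median, with the number of members in parentheses and a grey line at the median of all probe sets. Chemokines, NF-kappaB targets, interferon-stimulated genes and myeloid activation genes have the highest medians, while fibroblast, macrophage and extracellular matrix lists centre on 0.

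Metabolic and stress lists had smaller medians. Hypoxia and glycolysis genes were positive for 17 of 18 measured with a median of 0.11, and 3 reached an unadjusted p below 0.05 upward. Bnip3, a mitochondrial target of the hypoxia response, was at 10.68, 10.88 and 11.48 with MIF and at 10.35, 10.83 and 11.13 without, higher in 6 of 6 pairs by 0.22 ± 0.08. The list mean was 0.26, 0.00 and 0.22 at date codes 1, 2 and 3 without sCD74 and 0.11, -0.00 and 0.14 with it. Cholesterol synthesis genes were positive for 14 of 15 with a median of 0.16, but their list mean was 0.34, -0.31 and 0.20 without sCD74 and 0.51, -0.04 and 0.15 with it. Date code 2 had the lowest values of both lists. Without date code 1 the median of the cholesterol list was 0.00, and without date code 2 it was 0.33. The hypoxia median was 0.07 without replicate 1 of carrier and 0.20 without date code 2. Sqle, an enzyme of that pathway, had pair differences from -0.45 to 0.98.

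Transport of cationic amino acids was represented by Slc7a2, at 10.57, 11.01 and 11.14 with MIF and at 10.08, 10.62 and 10.81 without. It was higher in 6 of 6 pairs by 0.42 ± 0.11, by 0.66 without sCD74 and by 0.19 with it. Of 16 genes of amino acid transport and arginine metabolism, 14 were positive and 3 reached an unadjusted p below 0.05 upward. Arg1 and Arg2, the arginases, differed by 0.02 and 0.06.

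Mt2, a metallothionein that binds zinc and copper, was at 15.50, 15.70 and 16.28 with MIF and at 14.37, 15.38 and 15.69 without. Its 2 largest pair differences, 1.37 and 1.09, were both at date code 3, and at date code 2 it differed by 0.28 and -0.03. Slc39a14, a zinc importer, differed by 0.36. Antioxidant genes did not go along, since Hmox1, Nqo1 and Gclm differed by -0.01, -0.05 and 0.03, and the median over 13 stress genes was 0.03.

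Of 16 immediate early genes, 12 were positive and 3 reached an unadjusted p below 0.05 upward, namely Myc, Maff and Ier3. Fos, Jun and Egr1 differed by 0.08, 0.09 and 0.04. The list for unfolded proteins and amino acid shortage had a median of 0.08 over 17 members with 0 at an unadjusted p below 0.05. Cell cycle genes had a median of 0.07 over 18 members. Mki67, a marker of dividing cells, was lower in 6 of 6 pairs by small amounts, with levels of 14.18, 14.50 and 14.67 with MIF and 14.28, 14.67 and 14.79 without.

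The 10 smallest p-values among named genes lower with MIF belonged to genes of no list, namely Fnip2, Tmem80, Ppm1f, Tcl1b4, Zfp467, Ercc4, Cenpv, Slc25a27, Uts2r and Pyroxd2, with differences of -0.27 to -0.45 and limma's adjusted p of 0.416 to 0.498. All 10 were lower in 6 of 6 pairs, against 2.23% of all probe sets, as the rule that chose them required.

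Fnip2, whose product binds folliculin in the sensing of nutrients, was at 9.52, 10.69 and 10.93 with MIF and at 9.86, 11.02 and 11.32 without. Tmem80, a membrane protein of cilia, was at 8.02, 8.09 and 8.36 with MIF and at 8.42, 8.49 and 8.74 without, and its groups did not overlap. Ppm1f, a protein phosphatase, was at 10.47, 10.50 and 10.64 with MIF and at 10.71, 10.85 and 11.04 without, also with no overlap. Tcl1b4 was at 8.51, 8.68 and 8.83 with MIF and at 8.84, 9.04 and 9.26 without, again separate. Ercc4, a nuclease of DNA repair, was at 9.43, 9.63 and 9.84 with MIF and at 9.82, 9.93 and 10.26 without, with a narrow overlap. Slc25a27 and Uts2r averaged below the negative level with MIF.

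The list of MIF itself, its relative and its receptors also held the chemokine gene Cxcl12 and did not hold Cd74. Of its 7 genes, 4 were positive and 0 reached an unadjusted p below 0.05. Mif was at 10.66, 10.85 and 11.23 with MIF protein added and at 10.27, 10.69 and 10.92 without, a difference of 0.25 ± 0.14 that processed copies of the gene could share. Ddt, which encodes a homologue of MIF, was at 8.36, 8.87 and 9.02 with MIF and at 8.70, 8.85 and 9.39 without. Cd44, the signalling partner of CD74, was at 12.67, 12.81 and 13.17 with MIF and at 12.50, 12.73 and 12.97 without. Cxcr4 and Ackr3 differed by -0.05 and 0.19, and each had pairs of both signs.

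The differences at the 2 sCD74 levels, which the average combines, were also set side by side. MIF against carrier and sCD74 with MIF against sCD74 share no array, though they share date codes. Across the 22206 probe sets their log2 differences correlated with r = 0.22, and 56.9% had the same sign. At or above the negative level r was 0.30 and the same sign was found for 59.3%. These are correlations across probe sets, which are not independent replicates. Taken alone, MIF against carrier had 6.28% of probe sets at an unadjusted p below 0.05 and 0 calls, and sCD74 with MIF against sCD74 had 5.39% and 0 calls. No probe set passed for the interaction of MIF and sCD74 with limma, and 831 (3.74%) had an unadjusted p below 0.05. For comparison, the average sCD74 effect gave 0 calls with limma and 1067 probe sets (4.81%) at that level.

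MIF differences were also compared across the date codes. The interaction of MIF and date code gave 0 calls with limma, a smallest adjusted p of 0.723 and 1504 probe sets (6.77%) at an unadjusted p below 0.05. For Tnf and Ccl5 the largest pair difference, 2.04 and 2.70, was at date code 3 without sCD74. At date code 1 without sCD74, the pair differences of Ccl2, Ccl7, Clec4e and Acod1 were -0.24, -0.19, -0.05 and -0.05, and at the same code with sCD74 they were 1.54, 1.38, 1.68 and 1.63.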

How the data were processed

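RNA of 12 cultures was measured on 12 Affymetrix whole-transcript arrays. The deposited log2 values were made by the authors by RMA, and the submitters' processing notes also name Transcriptome Analysis Console and Affymetrix Expression Console, with no versions. RMA corrects background, equalises arrays and summarises probes, and can hide a global change in RNA amount. The lowest value was 3.29 and the highest 18.39. Each array had 231 to 251 probe sets past 16, the log2 limit of the scanner. The labels describe no step that accounts for this. A fold therefore depends on the deposited scale. No label names the genome build of the probe sets. Scanner files were not used here.

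Of 28846 probe sets, 6640 controls were left out of the tests. Of the other 22206, 19572 had 1 gene symbol in the platform table. The remaining 2634 had none or several, which were not counted apart and are called without a symbol here. Matching to RefSeq genes of GRCm38.p6 succeeded for all 19572 and altered 0 symbols. A gene with several probe sets was read from its brightest (19505 genes).

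Groups came from the labels. limma 3.58.1 in R 4.3.3 (lmFit, eBayes) fitted 4 group means with the replicate number as a fixed block over all 12 arrays, and the average of both MIF differences was tested two-sided with Benjamini-Hochberg adjustment over 22206 probe sets at 0.05. The fit was tested on simulated data. The pairing comes from the date code that the titles share within a replicate number. Once group means were removed, arrays of the same number from different groups had r from 0.08 to 0.63 (above 0.1 in 16 of 18 pairs), arrays of different number had -0.53 to 0.17, and for 12 of 12 arrays the closest array had its own number. The median residual SD on the log2 scale was 0.176 with the block and 0.211 without. Precision is limited by the number of arrays, and the median standard error of the average effect was 0.10.

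Gene lists (20 pathway and 8 cell type lists, 438 of 468 members measured) were described by counts and medians, with no list test. Some genes stand in more than 1 list, and the following are examples. Birc2, Birc3 and Cyld are in the NF-kappaB and necroptosis lists. Tnf, Il1b, Il6 and Csf1 are in the NF-kappaB and cytokine lists. Cxcl10 is in the chemokine and interferon lists, and Cd14 in the macrophage marker and myeloid activation lists. The fibroblast and extracellular matrix lists share Col1a1, Col1a2, Col3a1, Dcn, Lum, Fn1 and Postn. Named genes were the 10 with the smallest p in each direction that moved the same way in 6 of 6 pairs and were above the negative level in at least 1 group, for each list its 2 lowest in p, and 17 fixed genes. Further list members serve as examples that were picked with their values in view. The members and lists were chosen with earlier results of these data known. Promoters came from RefSeq. Alternatives were other block and variance settings, scalings, filters and leaving out arrays or date codes.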

Additional observations from a re-analysis of the deposited data

Results flagged for a closer look

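Among the named genes, 158 groups of 6 arrays were examined for an array far from the others by Dixon's test, which chance passes in about 1 of 20 groups, and 9 did so (5.7%). With MIF, replicate 1 of MIF alone stood low for Ccl7 at 11.42 (nearest array 12.59), for Ccl2 at 13.00 (nearest 14.72) and for Slc7a2 at 10.57 (nearest 10.95). Replicate 1 of sCD74 with MIF stood high for Tmem80 at 8.36. Without MIF, replicate 1 of sCD74 stood high for Actg2 at 7.67, for Slc39a14 at 12.45 and for Acta2 at 16.98. Replicate 2 of sCD74 stood low for Adamts4 at 8.22, and replicate 3 of sCD74 stood high for Tmem80 at 8.74.

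The mean of the macrophage marker list moved in opposite directions at the 2 sCD74 levels, above 0 in the 3 pairs with sCD74 (mean 0.16) and below 0 in the 3 without (mean -0.18). The gap between these was 0.33. This difference of the list means was not tested.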

How the results depend on the processing

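No probe set was called with the replicate block, 0 without it (973 at an unadjusted p below 0.05, limma's smallest adjusted p 0.999) and 0 with the block as a random effect (smallest 0.255). One further normalization by quantiles also gave 0. Of the upward calls that other settings made, 1 was made with MIF and block as the only terms (adjusted p 0.00852), 1 with additive terms for MIF and sCD74 (0.0214), 1 with arrays centred on their medians (0.0411), 1 among probe sets at or above the negative level (0.0211) and 1 among those with a gene symbol (0.0489). Each of these was Birc3. With a variance trend and robust fit 3 were called, Birc3 (0.000521), Nfkbia (0.0285) and Clec4e (0.0327). Leaving out arrays or date codes gave 0 to 3 calls upward. The 3 were Birc3, Ccl7 and Nfkbia without replicate 1 of MIF alone, and all other omissions gave 0. Downward calls, interactions and the sCD74 effect stayed at 0 calls in all settings run. The Birc3 difference ranged from 0.69 to 0.91 over omissions, and its adjusted p was 0.759 without date code 3.

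Some genes with small differences turned in sign. MIF against carrier alone gave -0.0635 for Des and -0.0798 for Cd4. sCD74 with MIF against sCD74 gave -0.0113 for Bcl2l1, 0.0958 for Casp8, -0.0448 for Col1a1 and 0.0847 for Lyz2. Omissions gave ranges with both signs for 4 genes: Cd3d (-0.311 to 0.0328), Cxcr4 (-0.162 to 0.135), Casp8 (-0.043 to 0.0376) and Col1a1 (-0.00198 to 0.142). None of these passed a threshold in any setting, and the cause was not tested. Several list medians also moved by over 1.5 times when arrays or date codes were left out, and only some of these shifts are given beside the lists. The median for unfolded proteins and amino acid shortage was -0.02 without date code 1. The cell cycle median was 0.02 without date code 3 and 0.18 without date code 2. The contractile median was 0.02 without replicate 1 of carrier. The median for matrix proteases was 0.04 without replicate 1 of MIF alone and 0.15 without date code 2. The median ranged from 0.21 to 0.41 for NF-kappaB genes, 0.22 to 0.37 for chemokines, 0.19 to 0.40 for interferon-stimulated genes, 0.07 to 0.44 for myeloid activation genes and 0.00 to 0.33 for cholesterol synthesis. Signal near the negative level limits Tnf, Nfkbie, Acod1, Mmp13, Actg2 and H2-Aa.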

Other observations

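Of the 100 smallest p-values, 73 belonged to probe sets higher with MIF and 27 to probe sets lower, and 29 and 16 of these averaged below the negative level. The genes named here stand in no list and were chosen after their values were seen, and none passed the adjusted threshold (limma's adjusted p 0.416 to 0.479). Sele, the endothelial selectin, averaged 9.80 with MIF and 8.69 without and was higher in 6 of 6 pairs by 1.12 ± 0.25, while the endothelial marker list had a median difference of 0.03. Tgtp2, an interferon-inducible GTPase, averaged 9.26 with MIF and 8.12 without, a value that its near-identical neighbour Tgtp1 can share. Ch25h, which makes 25-hydroxycholesterol, averaged 11.07 with MIF and 10.47 without.

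Tnfaip6 and Has2, which bind and make the matrix polymer hyaluronan, each differed by 0.41 in 6 of 6 pairs. Fgf23, a hormone of phosphate balance, averaged 9.27 with MIF and 8.41 without and was higher in 5 of 6 pairs. Mapk11, which encodes p38 beta, averaged 9.14 with MIF and 8.57 without and was higher in 6 of 6 pairs. Rgs16, a regulator of G protein signals, differed by 0.46 and Khk, the kinase of fructose, by 0.34, and the groups of Khk did not overlap.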
